A study of Mus musculus with 4 samples.

Results

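Metallothioneins are small cysteine-rich proteins that hold zinc and copper ions, and in the liver their genes are switched on by zinc, by glucocorticoids and by inflammatory signals. Zinc acts on them through Mtf1, a zinc finger transcription factor that binds short promoter elements called metal response elements. Zinc enters the cytosol through transporters of the Slc39a (ZIP) family and leaves it through those of the Slc30a (ZnT) family, some of which also carry manganese or iron. The genes described are Mt1, Mt2, Mtf1, Slc30a1, Slc30a10, Slc39a4, Slc39a8 and Slc39a14 in the livers of obese mice given galanin-like peptide (GALP), a hypothalamic neuropeptide. They were chosen with the GALP over control ratios of these arrays known, so that contrast is described for them and not tested. All probes for these gene symbols were taken, which gave 16 probes for 8 genes out of 41174 probes for 26582 gene names.

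Both sides of every array carried liver RNA of male C57BL/6J mice with diet-induced obesity. The mice were bought at 8 weeks of age, ate a high-fat diet for 14 weeks, weighed at least 40 g and were acclimatized for 2 weeks per the labels. The treated mice received porcine GALP at 1 nmol in saline with 5% α-cyclodextrin, and the control mice received saline, 2 µL into the nose once daily for 11 days. The GALP mice were pooled by weight loss, 4 animals with greater loss in one RNA pool and 4 with less loss in the other, and 8 saline mice made up the control RNA. On 2 dual-colour Agilent arrays a GALP pool met the control RNA with the dyes exchanged, so there were 4 arrays on 1 slide. In the labels the control channel also carries a weight loss group, whereas the methods describe 1 pool of control RNA. Arrays of the same pool hold the same extracts and were averaged, so a mean ± SD has n = 2 pools, and with 1 pool on each side no test between the pools was possible. By the methods both comparisons share the control RNA, and any deviation of such a shared RNA enters both ratios. In pooled whole liver, a change in cell make-up and a change in RNA per cell cannot be told apart.

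The arrays read as liver: 5 of 6 hepatocyte markers were on the array and above background, with a median log2 ratio of 0.05, and all 4 kidney markers were at background. Pancreatic transcripts set the pools apart. Of 6 pancreas markers, 5 were above background and Gcg was not, and their median log2 ratio of GALP over control was −3.34 and −3.58 on the 2 arrays of the pool with greater weight loss but 0.70 and 0.84 on those of the pool with less. Their summed signal, in multiples of each channel's 75th percentile, was 27.7 and 21.1 in the GALP channels of the greater pool, 363 and 292 in those of the less pool, and between 170 and 268 in the control channels. The part of this pancreatic RNA in any pool difference below was not tested. Precision was limited by the number of arrays, on which 40.5% to 46.7% of the probes in a channel were well above background and no spot was saturated.

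The Mt1 signal rests on a probe of 60 bases at chr8:96704011-96704070 (mm9, plus strand as listed, Agilent A_51_P294979, RefSeq transcript NM_013602). It is shown because it was printed at 10 places on each array and because it holds a reading frame rich in cysteine codons. Read from its base 3, 6 of its 19 whole codons are TGC or TGT, the codons of cysteine, which are in capitals, and no stop codon occurs.
Mt1 probe: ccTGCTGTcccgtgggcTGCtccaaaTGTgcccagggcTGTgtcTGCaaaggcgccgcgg

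The Mt1 and Mt2 genes lie side by side, with RefSeq starts 6471 bases apart on chromosome 8 (GRCm38.p6). Promoters are shown for the genes that were called as higher or lower, so that the metal response element letters can be read. The search looked for TGCACNC or TGCGCNC on either strand in 300 bases of the RefSeq promoter table, 250 before each gene's start and 50 after it. The 250 bases before the start are printed on the plus strand, 5′ to 3′, with matches in capitals. Overlapping matches, as in Slc30a10, run together.
Mt1, chr8:94178839-94179088: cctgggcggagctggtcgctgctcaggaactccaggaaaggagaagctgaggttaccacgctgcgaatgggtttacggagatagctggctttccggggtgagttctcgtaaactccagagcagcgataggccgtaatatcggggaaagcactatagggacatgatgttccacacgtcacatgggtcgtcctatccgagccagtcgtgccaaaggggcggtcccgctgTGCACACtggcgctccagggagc
Mt2, chr8:94172368-94172617: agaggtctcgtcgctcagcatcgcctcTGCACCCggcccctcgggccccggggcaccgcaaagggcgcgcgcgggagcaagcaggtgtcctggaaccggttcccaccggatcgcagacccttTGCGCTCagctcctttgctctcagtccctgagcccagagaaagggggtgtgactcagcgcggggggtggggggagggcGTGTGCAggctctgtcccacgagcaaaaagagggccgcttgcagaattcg
Slc30a10, chr1:185454598-185454847: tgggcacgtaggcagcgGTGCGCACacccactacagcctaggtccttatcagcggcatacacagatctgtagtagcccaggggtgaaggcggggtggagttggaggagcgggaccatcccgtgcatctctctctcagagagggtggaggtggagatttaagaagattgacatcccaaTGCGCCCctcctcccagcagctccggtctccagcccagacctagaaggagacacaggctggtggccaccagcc

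The Mt1 window held 3 matches, of which 1 lies before the start, and the Mt2 window held 4, of which 3 lie before it. The Slc30a10 window held 3 matches, 2 of them the same letters read on both strands and offset by 1 base. Among the other members with a promoter in the table, Slc30a1 had 2 matches, 1 of the 2 Slc39a8 promoters had 1, and Mtf1 had none. Of all 32851 promoters in the table, 25.7% held at least 1 match, 7.11% at least 2, 1.97% at least 3 and 0.517% at least 4. In the other zinc transporters, 9 of 21 promoters held a match, from 8 of the 17 genes with a promoter in the table. The letters were thus present in members that were higher, lower and near 0 on the arrays. A match is a run of letters, not a binding site.

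With the p-value and fold limits of the study's methods, applied here strictly to every array, Mt1 and Mt2 were higher and Slc30a10 was lower with GALP, and the other 5 members were not called. A call needed a fold above 1.5, or below 0.75, in both pools, and all 4 arrays had to share the direction and have a Feature Extraction p-value under 0.01. The number of arrays on which the limits must hold is not given in the sources used here, and all 4 were required as a choice of the present processing. The p-value compares the 2 channels of 1 array. The called member probes were 1 of the 2 Mt1 probes, the Mt2 probe and both Slc30a10 probes. Over the whole table, 24 of 41037 probes were called higher (0.0585%) and 54 lower (0.132%). Because the members were chosen from this contrast, nothing is read from their share against that background. With the 2 pools as replicates and 1 residual degree of freedom, limma called no probe of the table at an adjusted p under 0.05 (0 of 41037, which is 0%), whereas 2049 probes (4.99%) were higher and 2710 (6.6%) lower before adjustment, at a p under 0.05.

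**Figure D1:**
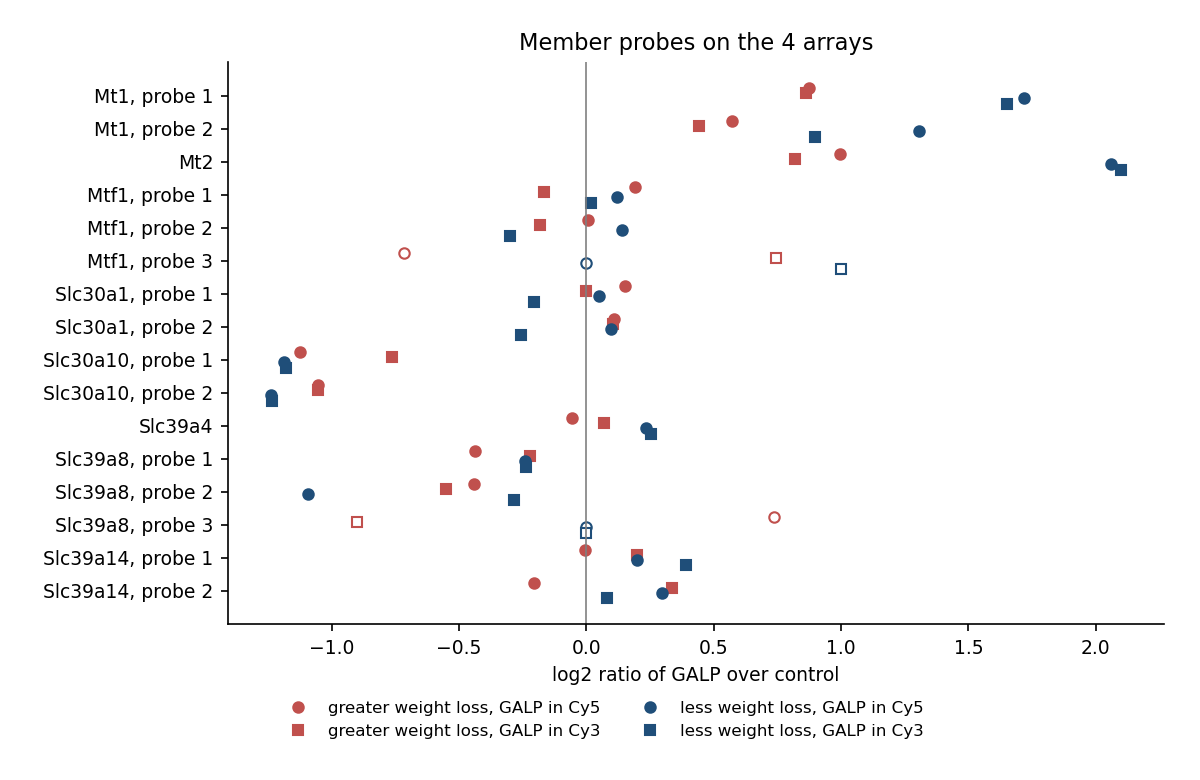
Log2 ratio of GALP over control for the 16 member probes on each of the 4 arrays, with probes of a gene numbered from the brightest. Red marks the pool with greater and blue the pool with less weight loss, circles are arrays with GALP in Cy5 and squares with GALP in Cy3, and open symbols are probes not above background in every channel. The Mt1 and Mt2 probes lay right of 0 on all arrays, the Slc30a10 probes lay left of 0 on all arrays, and Mtf1 and Slc30a1 lay on both sides.

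Mt1 encodes one of the 2 metallothioneins that the liver makes in quantity. The log2 ratio of its brighter probe was 0.88 and 0.86 on the arrays of the pool with greater weight loss and 1.72 and 1.65 on those of the pool with less weight loss. All 4 arrays were high, and the arrays of the pool with less weight loss stood above both others. Averaged over the pools the log2 ratio was 1.28 ± 0.58 (SD, n = 2 pools), which is a 1.83-fold higher level in the greater pool and a 3.22-fold higher level in the less pool.

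The 10 spots of this probe show how closely an array repeated itself. The SD of the log2 ratio over the spots kept on an array, between 7 and 10 after outlier marks, lay between 0.03 and 0.06. The kept spots ran from 0.77 to 0.91 on the 2 arrays of the pool with greater weight loss and from 1.55 to 1.78 on those of the pool with less. The ranges of the pools thus did not overlap, but the spots repeat the same extracts and say nothing of the spread between mice.

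**Figure D2:**
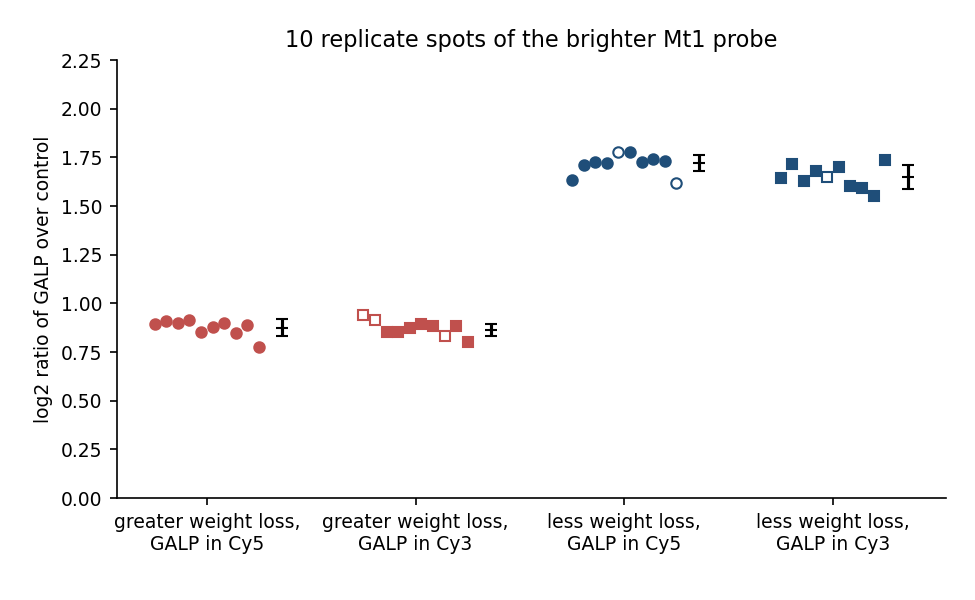
Log2 ratio of GALP over control at each of the 10 spots of the brighter Mt1 probe on the 4 arrays, in slide order, with GALP in Cy5 as circles and in Cy3 as squares. Open symbols carry an outlier mark and were left out of the mean and SD drawn in black. The spots of the pool with greater weight loss lay below 1 and those of the pool with less weight loss above 1.5.

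The second Mt1 probe lies at chr8:96703844-96703903 (mm9) and is assigned by the array design to 2 Ensembl transcripts and a predicted RefSeq transcript of Mt1, and not to NM_013602. Its log2 ratio was 0.57 and 0.44 in the greater pool and 1.31 and 0.90 in the less pool. It was higher on all 4 arrays, with a mean of 0.81 ± 0.42 (SD, n = 2 pools). It missed the call because its fold in the greater pool was 1.42 and its p-value on 1 array was 0.0398. Its signal was low, 188 to 465 intensity units, against 9075 to 35365 for the brighter probe. With normexp background correction and loess its mean fell to 0.35.

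Mt2 encodes the other main hepatic metallothionein and had 1 probe, at chr8:96697371-96697430 (mm9), with 1 spot an array. Its log2 ratio was 0.99 and 0.82 in the greater pool and 2.06 and 2.10 in the less pool. The order of the pools was that of Mt1, with no overlap between the arrays of the 2 pools. The mean was 1.49 ± 0.83 (SD, n = 2 pools), 1.88-fold higher in the greater and 4.23-fold higher in the less pool.

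Among the 14444 probes above background in both channels of all arrays, the Mt2 probe ranked 2nd and the brighter Mt1 probe 3rd by mean log2 ratio. In the pool with less weight loss they ranked 1st and 2nd, and in the pool with greater weight loss 27th and 37th. The difference between the pools, less minus greater, was 1.17 on the log2 scale for Mt2, 0.82 for the brighter Mt1 probe and 0.59 for the second. A difference at least as large in either direction was seen for 0.485%, 0.789% and 2.04% of the 14444 probes. These shares describe the probes and are no test, since each pool is 1 sample.

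**Figure D3:**
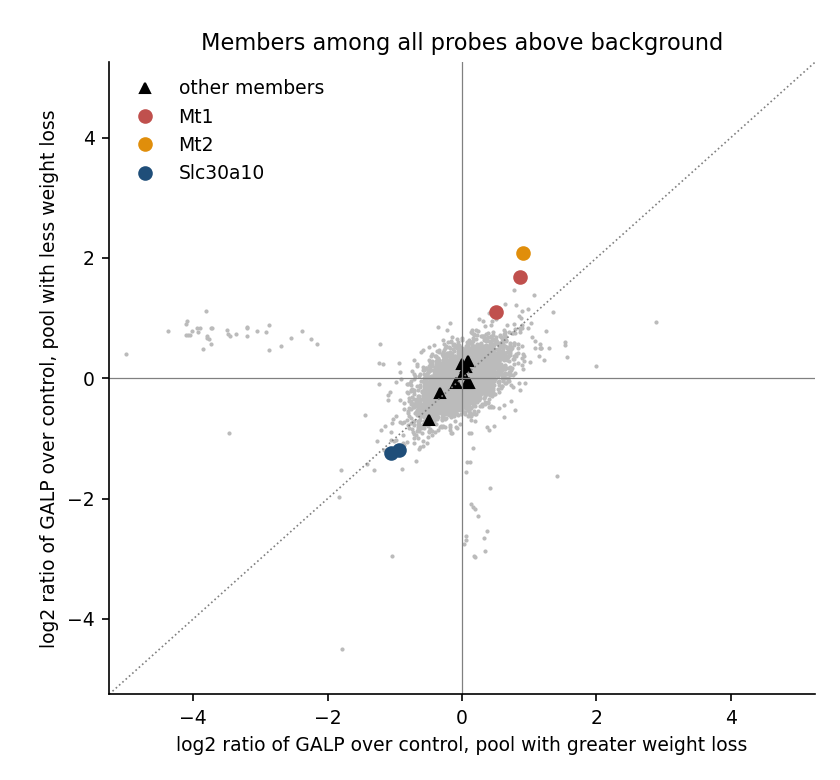
Log2 ratio of GALP over control in the pool with greater weight loss (horizontal) against that in the pool with less weight loss (vertical) for the 14444 probes above background in both channels of all arrays, in grey. The Mt1 and Mt2 probes lay above the dotted line of equal ratios at the upper right, the 2 Slc30a10 probes near that line at the lower left, and the other members (triangles) nearer to 0, with the dimmer of the Slc39a8 probes above background the farthest of them.

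The signals of the 2 channels show where the pool difference sat. In intensity units, the brighter Mt1 probe read 19341 and 16501 in the GALP channels of the greater pool and 35365 and 30402 in those of the less pool, and its control channels read 10529, 9075, 10745 and 9687. For Mt1 the control channels were thus alike and the GALP channels differed. The Mt2 probe read 41522 and 32791 in the GALP channels of the greater pool and 66429 and 63196 in those of the less pool. Its control channels read 20842 and 18579 on the arrays of the greater pool and 15936 and 14727 on those of the less pool, so the GALP side was higher and the control side lower on the latter.

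After each channel was scaled by its 75th percentile, the less minus greater shift of Mt2 was 0.67 in the GALP channels and −0.47 in the control channels, on the log2 scale. For the brighter Mt1 probe the same shifts were 0.74 and −0.05. The median shift over the 14444 probes was −0.13 in the GALP channels and −0.09 in the control channels, and 5.01% of the probes had a control shift at least as large as that of Mt2. Part of the Mt2 pool difference was thus in the control channel, whereas that of Mt1 was almost all in the GALP channel. Without the control channels, the pool differences of Mt1 and Mt2 were close, at 0.74 and 0.67. The pancreas markers moved with the pools as well, lower than control in the greater and higher in the less pool. Mt1 and Mt2 were above control in both pools and, like the pancreas markers, higher in the less pool. The part of pancreatic RNA in this order was not tested.

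**Figure D4:**
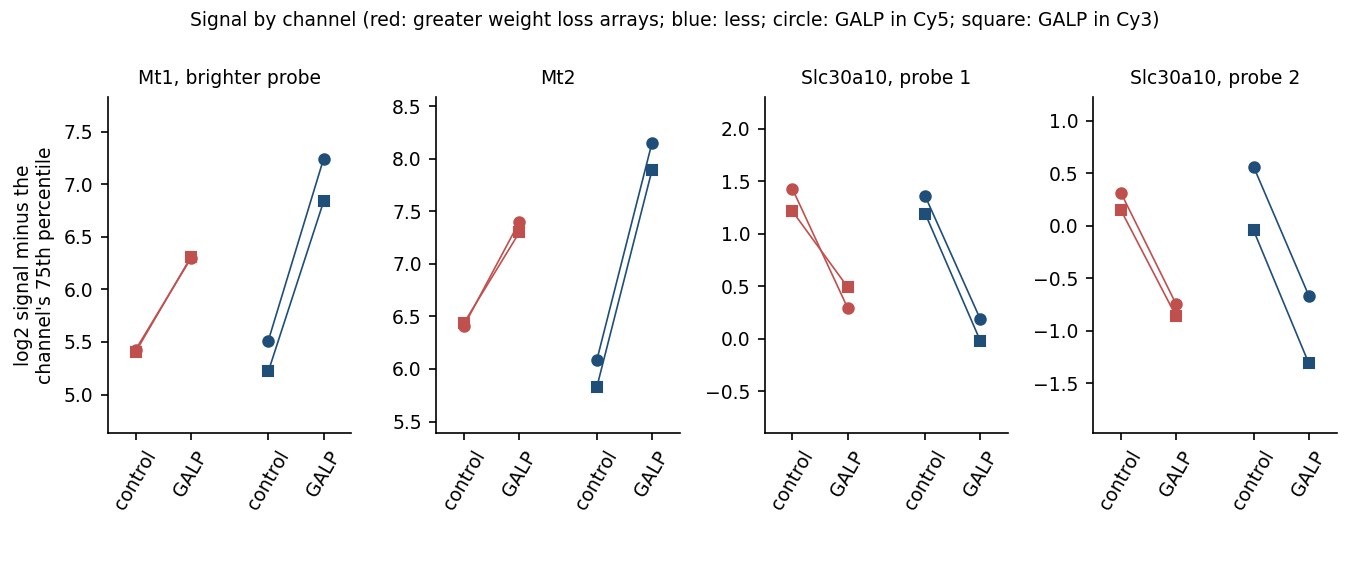
Log2 signal of the brighter Mt1 probe, the Mt2 probe and both Slc30a10 probes in the control and GALP channels of each array, each minus the 75th percentile of that channel, with a line for each array. Every panel spans the same height, in log2 units. The Mt1 and Mt2 lines rise and the Slc30a10 lines fall on every array, and the control end of Mt2 sits lower on the arrays of the pool with less weight loss.

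Slc30a10, named for the zinc exporters and known in the liver as a manganese exporter, was the member that was lower. Its brighter probe, at chr1:187288652-187288711 (mm9), had a log2 ratio of −1.13 and −0.76 in the greater pool and −1.19 and −1.18 in the less pool. The second probe, at chr1:187292107-187292166, had −1.05 on both arrays of the greater pool and −1.24 and −1.23 on those of the less pool. Both probes were low on all 4 arrays, and the 2 pools lay close together. The means were −1.06 ± 0.17 and −1.15 ± 0.13 (SD, n = 2 pools), or 0.478 and 0.452 of the control level.

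In intensity units, the brighter Slc30a10 probe read 301, 293, 265 and 262 in the GALP channels and 658, 497, 604 and 594 in the control channels of the same arrays. The GALP and control channels did not overlap. The 2 probes ranked 51st and 46th from the bottom of the 14444 probes by mean log2 ratio. With normexp background correction and loess, their means were −0.57 and −0.39, and the second probe lost its call.

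The zinc and manganese importers Slc39a8 and Slc39a14 were not called. Slc39a8 had 3 probes, of which the one at chr3:135522465-135522524 (mm9) was at background in every channel. The 2 others had log2 ratios of −0.44, −0.22, −0.24 and −0.24, and of −0.44, −0.55, −1.09 and −0.29, on the arrays in the order greater Cy5, greater Cy3, less Cy5 and less Cy3 for the dye of GALP. Both were below 0 on all 4 arrays, with means of −0.28 ± 0.06 and −0.59 ± 0.14 (SD, n = 2 pools), and a p-value under 0.01 was reached on none and on 1 of the 4 arrays. The dimmer of the 2 passed the fold limit in both pools, at 0.708 and 0.620 of control. It is called only when the p-value rule is dropped. With normexp background correction and loess, the means of the 2 probes shrank to −0.11 and −0.07, brighter probe first.

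Slc39a14, which also takes up iron and manganese in hepatocytes, had 2 probes above background. Their log2 ratios ran from −0.01 to 0.39 and from −0.20 to 0.34 over the 4 arrays, with means of 0.20 ± 0.14 and 0.13 ± 0.09 (SD, n = 2 pools). Slc39a4, the importer known for zinc uptake in the intestine, was measured here with 5589 to 7512 intensity units over the 8 channels. Its log2 ratio was −0.06 and 0.07 in the greater pool and 0.24 and 0.25 in the less pool, a mean of 0.12 ± 0.17 (SD, n = 2 pools). The Slc39a4 pools did not overlap, and 16.7% of the 14444 probes had a pool difference at least as large.

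Slc30a1, the zinc exporter of the plasma membrane and a known target of Mtf1, lay near 0. Its 2 probes had log2 ratios of 0.15, −0.00075, 0.05 and −0.21, and of 0.11, 0.11, 0.10 and −0.26, on the arrays in the same order. Their means were −0.0014 ± 0.11 and 0.01 ± 0.13 (SD, n = 2 pools). The arrays fell on both sides of 0 and the dyes of the less pool disagreed in sign.

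Mtf1 itself, the transcription factor, had 2 probes above background in all channels, with means of 0.04 ± 0.04 and −0.08 ± 0.0038 (SD, n = 2 pools). Their 4 arrays ran from −0.17 to 0.19 and from −0.30 to 0.14. In 3 of the 4 pairs of arrays with the dyes exchanged, the 2 signs were opposite. The third Mtf1 probe was not above background in every channel and gives no direction. The Mtf1 values concern the level of its RNA alone.

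The wider zinc transporter families showed no called gene, which is near the share of all probes called, 0.0585% higher and 0.132% lower. All 19 other Slc30a and Slc39a genes of the list were on the array, 15 of them above background on at least 1 array, and 0 were called higher and 0 lower. Their median log2 ratio was −0.04, from −0.46 to 0.19, against 0.01 over all 16345 genes above background. In limma, 0 genes passed the adjusted p. At an unadjusted p under 0.05, 0 of their 30 probes were higher and 4 were lower, beside the 4.99% and 6.6% of all probes. Of these 4, those of Slc39a2, Slc39a7 and Slc39a10 were the only probes of their genes, and that of Slc30a5 was at background in every channel. Slc30a2, Slc30a3, Slc30a8 and Slc39a12, of which Slc30a8 is the zinc transporter of insulin granules, were at background.

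The lowest values belonged to Slc39a10, an importer of the plasma membrane, at −0.46 ± 0.03, and Slc30a4, a vesicular exporter, at −0.33 ± 0.10 (SD, n = 2 pools). The arrays of Slc39a10 disagreed: −0.35 and −0.52 in the greater pool but −1.67 and 0.71 in the less pool. Slc30a4 followed the dye, at −0.15 and −0.66 in the greater pool and 0.04 and −0.56 in the less pool, GALP in Cy5 first. The highest were Slc39a6 at 0.19 ± 0.08 and Slc39a13, a transporter of internal membranes, at 0.07 ± 0.03 (SD, n = 2 pools). Slc39a10 passed the lower fold limit in both pools, at −0.44 and −0.48, but its arrays did not share the direction, and the other 3 genes did not pass the limits in both pools.

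**Figure D5:**
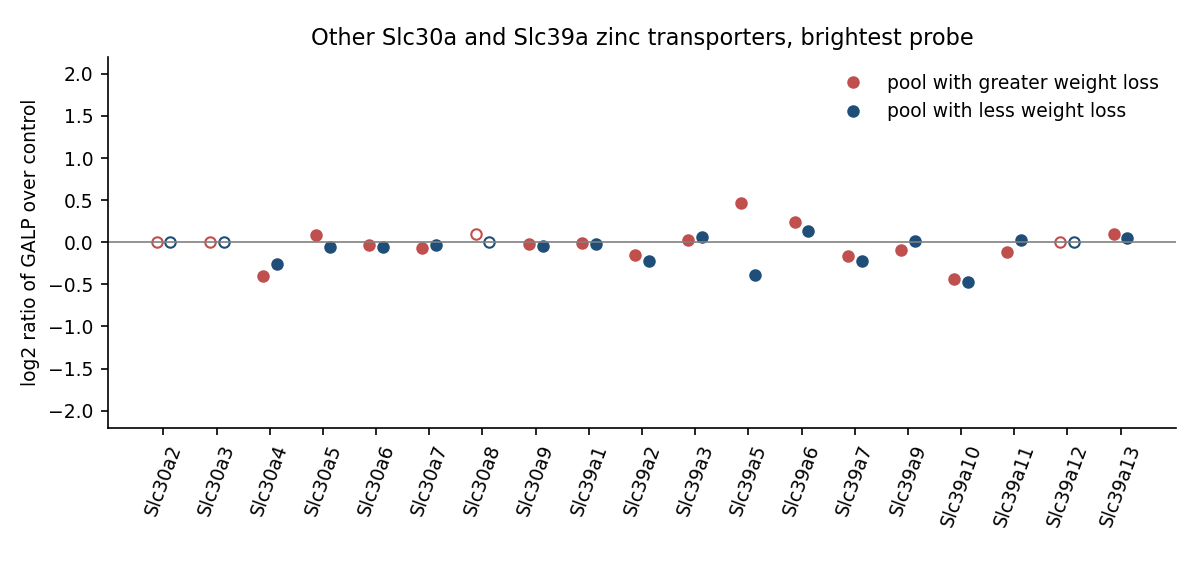
Log2 ratio of GALP over control of the brightest probe of the 19 other Slc30a and Slc39a genes, 1 point for each pool (red, greater weight loss; blue, less). Open symbols are genes at background on every array. The axis spans the range of the Mt1 and Mt2 values, and the points lay between −0.48 and 0.46.

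The other metallothioneins did not follow Mt1 and Mt2. Mt3, the metallothionein known from brain, had log2 ratios of 0.03, −0.67, 0.04 and −0.61 in the same order of arrays, so its sign changed with the dye. Mt4, known from stratified epithelium, was above background in 3 GALP and 3 control channels and had a mean of 0.09 ± 0.32 (SD, n = 2 pools).

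Copper handling genes were included because metallothioneins also bind copper. None of the 12 on the array was called, and their median log2 ratio was −0.03, from −0.15 for Sco1 to 0.37 for Steap4, a metalloreductase that was above 0 on all 4 arrays. The next lowest and highest were the copper enzyme Sod1 at −0.08 and the copper pump Atp7a at 0.13. Of 15 iron handling genes, 0 were called, with a median of 0.03. For both lists, 0 calls is near the share of all probes called, 0.0585% higher and 0.132% lower. The iron hormone genes Hamp2 and Hamp were highest, at 0.75 ± 0.0039 and 0.46 ± 0.40 (SD, n = 2 pools). Hamp2 was above 0 on all 4 arrays, with 0.99 and 1.05 where GALP was in Cy5 and 0.52 and 0.44 where it was in Cy3. The lowest by brightest probe were the transferrin receptor Tfrc at −0.31 and the iron importer Slc11a2 at −0.12. The Slc11a2 probe changed sign with the dye, at 0.04 and 0.02 with GALP in Cy5 and −0.32 and −0.23 in Cy3. The median over the 3 Slc11a2 probes was 0.17, so no direction is read from this gene.

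Genes known to share an inducer with the metallothioneins were mostly not called, beside 0.0585% of all probes called higher and 0.132% lower. Of 8 glucocorticoid targets on the array, Fkbp5, a chaperone partner of the glucocorticoid receptor, was called higher at 1.23 ± 0.17 (SD, n = 2 pools). Lcn2 followed at 0.63, Dusp1 and Tat were lowest at −0.53 and −0.38, and the median was 0.08. The ratio of Fkbp5 was 1.35 in the greater pool and 1.10 in the less pool. Its arrays read 1.49 and 1.21 in the greater pool and 1.20 and 1.01 in the less pool. The pools thus nearly met, the dyes of a pool differed about as much as the pools, and no order of the pools is read from Fkbp5. Of 11 acute-phase genes 0 were called, with a median of 0.16, from −0.15 for both Orm1 and Apcs to 0.21 for Itih4 and 0.51 for Saa3. Of 8 oxidative stress genes 0 were called, with a median of −0.04. Gsta1 at 0.68 and Hmox1 at 0.25 were the highest, and the glutathione synthesis gene Gclc at −0.50 and Txnrd1 at −0.17 the lowest.

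Likeness to Mt1 and Mt2 was measured as the Euclidean distance between the log2 ratios on the 4 arrays, over 14444 probes. The probes closest to the brighter Mt1 probe were those of Sult1e1 (0.388), Mt2 (0.578), Krt23 (0.621), Osbpl5 (0.672) and Cyp2b13 (0.745). The probe closest to Mt2 was that of Mt1, followed by those of Sult1e1, Krt23, Osbpl5 and Cyp2b13. The estrogen sulfotransferase Sult1e1 had pool ratios of 0.77 and 1.47, the keratin Krt23 1.08 and 1.39, Osbpl5 0.80 and 1.22, and the cytochrome P450 Cyp2b13 0.63 and 1.23 on the log2 scale, greater pool first. Each was higher in both pools and more so in the pool with less weight loss. As they were chosen for closeness to Mt1 and Mt2 on these arrays, this pattern follows from the choice. By the methods the arrays share the control RNA, and the distance says nothing of shared function or control.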

How the data were processed

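Liver RNA was measured on 4 dual-colour Agilent arrays. The authors scanned the arrays and processed them with Feature Extraction, whose version is 12.0.3.1 per the file headers and 11.0.1.1 in the submitters' processing notes. The deposited files give each spot a background-subtracted, dye-normalized intensity in each channel, a log10 ratio of Cy5 over Cy3 and a p-value of that ratio. A second deposited table of log10 ratios was used as an alternative. It already gives GALP over control, with r = 1 to the scanner values once these were turned that way. To the scanner values as deposited, r was −1 on the arrays with GALP in Cy3.

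Ratios were converted to log2, turned to GALP over control by the dyes in the labels, and averaged over spots without outlier marks, over the 2 arrays of a pool and then over the pools. A gene of a list was represented by its brightest probe, and a gene was at background when that probe was well above background in no channel. limma 3.58.1 in R 4.3.3 tested the 2 pool ratios against 0 with Benjamini-Hochberg adjustment over 41037 probes. This leaves out the spread of the control, which is 1 pool by the methods. Both procedures were tested on simulated data. Python 3.11.15 with numpy 2.4.6, pandas 2.3.3 and matplotlib 3.10.9 did the rest.

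The genes, lists and tests were chosen with earlier results of these data known. Named were all member probes, called genes of the wider lists with the 2 highest and 2 lowest of each list, and the 5 genes closest to Mt1 and to Mt2. The lists were zinc transporters, other metallothioneins, copper and iron handling, glucocorticoid targets, acute-phase and oxidative stress genes, and cell type markers. Alternatives were normexp (offset 50) with loess, centring, the second table, outlier marks kept, the median of spots, the arrays of 1 dye orientation, leaving out each pool, other p-value rules, a filter on dim probes and, for limma, an intensity trend and the pool as a random block.

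Promoter sequences are from RefSeq (GRCm38.p6) and matched 6 of the 8 members. Probe positions are on mm9 as the files give them, and exon or untranslated region was not annotated here.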

Additional observations from a re-analysis of the deposited data

Results flagged for a closer look

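The median log2 ratio of the 5 pancreas markers above background was −3.46 for greater weight loss and 0.77 for less weight loss, a difference of 4.23. Both arrays of the one pool lay below 0 and both arrays of the other above 0, and the difference was not tested, since each pool is 1 sample. No member probe above background in all channels had its pools on opposite sides of 0 on all arrays.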

How the results depend on the processing

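By the fold and p-value limits, Mt1, Mt2 and Slc30a10 were called under each alternative tried for the ratio, p-value rule or dim probes. With normexp, 1 of the 2 Slc30a10 probes was not called. Leaving out a pool or loosening the p-value rule can remove no call, since the main rule asks for more. With normexp, centring, the second table and the median of spots, the Feature Extraction p-values stayed as they were. The called member probes kept their sign in all 9 alternatives to the ratio, and leaving out arrays could not have turned it. Without the pool with greater or the pool with less weight loss, the brighter Mt1 probe ran from 0.87 to 1.69 and Mt2 from 0.91 to 2.08. Slc30a10 ran from −1.18 to −0.94 and from −1.24 to −1.05, and the second Mt1 probe from 0.51 to 1.10, called only in the pool with less weight loss. With normexp and loess the second Slc30a10 probe had −0.39, and the cause was not tested. The uncalled Mtf1 and Slc30a1 probes changed sign in 1 to 3 of 9 alternatives each, and the Slc39a8 probe at background in 3. Without the p-value rule, 2 members were lower, Slc39a8 being the added one.

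The number of all probes called higher and lower was 9 and 26 with normexp and loess, 133 and 139 with GALP in Cy5 only, 140 and 156 with GALP in Cy3 only, 53 and 166 with a p-value under 0.01 on 1 array of each pool, and 154 and 360 with no p-value rule. Leaving out a pool gave 96 to 120 higher and 149 to 162 lower. limma called 42 higher and 53 lower with normexp and loess, and 0 and 1 without dim probes, against 0 and 0. With the pool as a random block it called 39 and 67 (consensus correlation −0.39). That fit took the arrays of a pool as separate values, although they hold the same extracts. Its counts thus rest on repeat measurements of the pools and not on more pools, and no gain in evidence is read from them. The median of the zinc transporter family, −0.04, was −0.017 with genes at background included. The share of promoters with a match was 51.0% with TGCNCNC.

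From the GALP channels alone, chosen after seeing the data, the pool difference was 0.74 for the brighter Mt1 probe and 0.67 for Mt2. The labels carry no replicate numbers, and GALP and control RNA came from pools of different mice. No paired analysis was thus possible beyond the pairing of GALP and control RNA that each array already holds. A single control pool, as the methods describe it, and 2 GALP pools limit all of these values.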

Other observations

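The genes whose log2 ratios on the 4 arrays lay closest to those of the brighter Slc30a10 probe were looked up after the values had been seen. They were Camk1d, a kinase gene, at a distance of 0.311, Mup1, a major urinary protein gene, at 0.329, Mvd, an enzyme of sterol synthesis, at 0.418, Ms4a1 at 0.423 and the immediate early gene Nr4a1 at 0.430, over 14444 probes. Their mean log2 ratios were −0.98, −0.94, −1.001, −0.86 and −0.97. Mup1 belongs to a family of nearly identical genes that a probe may not tell apart.

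Among the 5 Kupffer cell markers, the scavenger receptor gene Marco was called higher, at 0.87 ± 0.25 (SD, n = 2 pools), and the median of the 5 was 0.14. Over all probes, 0.0585% were called higher. The summed signal of these markers, in multiples of each channel's 75th percentile, was 95.1 to 120 in the GALP channels and 87.2 to 95.4 in the control channels.

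The median log2 ratio was −0.02 over 4 sinusoidal endothelium markers, 0.13 over 4 stellate cell markers and −0.14 over the 3 bile duct markers above background. Of 6 small intestine markers, 3 were above background on at least 1 array, and 0 were called, beside 0.0585% of all probes higher and 0.132% lower. Their median was −3.09 and −1.08 on the arrays with GALP in Cy5, greater pool first, and −0.20 and −0.15 on those with GALP in Cy3. Sis changed with the dye, at −3.42 and −0.11 in the greater and −1.59 and −0.22 in the less pool, Cy5 first. Alpi was low with either dye in the greater pool, at −3.09 and −2.96, but −1.08 and 0.15 in the less pool. Alpi was above background in 0 GALP and 3 control channels. Fabp2 was below 0 on all 4 arrays.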
